A study of Mus musculus with 12 samples.

Results

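The 10 genes described here are Atf4 and 9 genes that act with it in the cellular response to amino-acid shortage and related stresses, Ddit3, Trib3, Chac1, Asns, Sesn2, Atf5, Nupr1, Eif2ak4 and Cebpb. They were taken by name from the 28689 genes of the expression table, and all 10 were found there. They were chosen by their known role and with their values in this comparison already known, so the differences between groups are given for them as a description. All 10 also passed the filter on low values, which asked for 1 FPKM or more in 6 or more libraries and left 12467 genes. FPKM counts fragments relative to the length of the gene and to the depth of the library, so that levels can be set side by side between genes.

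RNA came from mouse lung endothelial cells (MLECs), primary cells selected from digested lung with beads against CD31 and then against ICAM2 and grown for a few passages. The CTR group (labelled WT, 6 libraries) came from adult male mice with floxed alleles but no Cre (VE-CAD-CreERT2-/Sp1 fl/fl/Sp3 fl/fl). The dKO group (endothelial Sp1/Sp3 knockout, 6 libraries) came from littermates with Cre (VE-CAD-CreERT2+/Sp1 fl/fl/Sp3 fl/fl), in which the VE-cadherin promoter drives a tamoxifen-dependent Cre, so that deletion is limited to cells that use this promoter. Tamoxifen is given for both groups. The number of mice behind a library is not given, so p-values measure the spread between these libraries. The labels name lung as the tissue while their extraction protocol speaks of retinas, and of 7 retina markers in the table none was above 0.137 FPKM in any library. In bulk RNA of this kind, fewer cells of a type and less RNA per cell cannot be told apart.

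The targeted genes were looked at first. Sp1 lay between 19.4 and 23.7 FPKM in CTR and between 8.42 and 12.1 FPKM in dKO, and its mean was 49.9% of the CTR mean (exact two-sided permutation test over 924 splits, p = 0.00216, the smallest that 6 against 6 allows). Sp3 lay between 24.2 and 31.1 FPKM in CTR and between 22.5 and 26.9 FPKM in dKO, with 2 of 6 dKO libraries below all CTR libraries (exact permutation p = 0.0455). With the libraries scaled by median of ratios the Sp3 difference was -0.05 on the log2 scale and its exact permutation p was 0.374, and with 1 library left out the exact permutation p exceeded 0.05 in 9 of 12 cases. Columns named for tamoxifen were taken as dKO because the other columns carry the control name. Of the 12 endothelial markers, 11 were higher in dKO and 0 lower, and of the 12 macrophage markers 11 were higher and 1 (Marco) lower. By the same measure, an adjusted p under 0.05 in the fit given below, 20.4% of all tested genes were higher and 32.6% lower. The summed macrophage markers ran from 821 to 1367 FPKM in CTR and from 2348 to 5374 FPKM in dKO, the summed endothelial markers from 221 to 344 and from 403 to 550 FPKM, and the summed fibroblast markers from 2124 to 2703 and from 820 to 1650 FPKM. The macrophage, endothelial and fibroblast sums therefore do not overlap between the groups. Neither did the summed mesothelial markers, at 28.8 to 38.6 FPKM in CTR and 66.3 to 146 FPKM in dKO. The part of these cell types in the results on Atf4 and its partners was not tested. Of the 6 fibroblast markers tested, 3 were lower, the collagen genes Col1a1, Col1a2 and Col3a1, and 1 (Dcn) was higher. Most of the fibroblast sum came from these collagen genes, with CTR means of 1173, 598 and 544 FPKM. Lyz2 made up most of the macrophage sum, with means of 746 FPKM in CTR and 1868 FPKM in dKO.

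When amino acids run short, uncharged tRNA activates the kinase GCN2, encoded by Eif2ak4, which phosphorylates the translation factor eIF2. Bulk protein synthesis then slows while the Atf4 mRNA is translated better, and ATF4, a basic leucine zipper (bZIP) factor, switches on genes for amino-acid synthesis, uptake and tRNA charging. ATF4 binds as a dimer with C/EBP factors at composite sites called C/EBP-ATF response elements (CARE), and several of its targets feed back on the pathway. Other eIF2 kinases bring signals from the endoplasmic reticulum (ER), from heme shortage and from viral RNA to the same point.

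The promoters of the members were searched for the letters TGATGNAA, a core of the CARE, on both strands. The RefSeq promoter table (GRCm38.p6) gives 300 bases per promoter, from 250 bases before to 50 bases after the start, and it held all 10 genes. A gene with several promoters was scored by the promoter with the most matches. The core was found in 4 of the 10, Trib3, Chac1, Asns and Nupr1 (40%), and in 1219 of the 27025 genes with promoters of this length (4.51%). In windows of 300 bases around the GENCODE canonical start on GRCm39, a choice made after the first matches were seen, it was found in 2 of the 10, Ddit3 and Chac1, and in 2.73% of 17353 promoters. In the longer window, from 1000 bases before to 200 bases after that start, it was found in 5 of the 10, Ddit3, Trib3, Chac1, Sesn2 and Nupr1, and in 12.7% of promoters. No window of Atf4, Atf5, Eif2ak4 or Cebpb held these letters.

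The stretches that hold the core are shown because they set genes with and without these letters beside their values. Each is 30 bases long, 5′ to 3′ on the gene's strand, matched without change to GRCm39, with the 8 bases that fit the core or its complement in capitals. Those of Trib3, Chac1, Asns and Nupr1 come from the RefSeq promoters, those of Ddit3 and Sesn2 from GRCm39 at the GENCODE start. They lie at chr2:152185948-152185977 (minus strand, Trib3), chr2:119181519-119181548 (plus, Chac1), chr6:7693214-7693243 (minus, Asns), chr7:126224734-126224763 (minus, Nupr1), chr10:127126350-127126379 (plus, Ddit3) and chr4:132238053-132238082 (minus, Sesn2).
Trib3: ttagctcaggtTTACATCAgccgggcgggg
Chac1: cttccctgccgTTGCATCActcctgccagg
Asns: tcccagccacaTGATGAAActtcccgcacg
Nupr1: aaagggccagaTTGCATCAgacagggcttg
Ddit3: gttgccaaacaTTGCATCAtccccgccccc
Sesn2: gtgaagtcccgTTTCATCAcgcagccctaa

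Read on either strand, Chac1, Nupr1 and Ddit3 share the same 8 letters, and Asns and Sesn2 share another form, printed here on opposite strands. Trib3 holds a form of its own. From the starts used, the core began 23 bases before the start in Asns, 110 bases before in Nupr1, 193 bases before in Chac1, 199 bases before in Ddit3, 256 bases before in Sesn2 and at base 15 after the start in Trib3. The GC box GGGCGG, the letters to which Sp1 and Sp3 bind, was searched in the same way. It was found in the RefSeq promoters of 8 of the 10 members (80.0%), of 70% of 9095 tested genes and of 38.2% of all genes with a promoter. In these promoters Atf4 and Ddit3 were the members without one, while Cebpb held 5 and Trib3 held 4. In the shorter windows at the GENCODE starts, it was found in 80.0% of members and 59.7% of tested genes. Atf4 and Asns were the members without one there. Ddit3 held 1, which began 188 bases before that start, within the stretch printed above. In the longer window the shares were 80.0% and 76.7%. In the RefSeq promoters the share of G and C was 61.3% in the median member and 61.0% in the median tested gene. A match is a description of the letters and not a binding site.

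Atf4 (ENSMUSG00000042406, chr15:80139372-80141745 on GRCm39, plus strand), the factor at the centre of the response, was the most abundant member in both groups. It ran from 234 to 391 FPKM in CTR (median 327) and from 151 to 222 FPKM in dKO (median 164), and the groups did not overlap. The dKO mean, 173 ± 25.2 FPKM (SD, n = 6), was 55.2% of the CTR mean, 314 ± 55.0 FPKM (SD, n = 6). On log2(FPKM + 1), the scale of all log2 differences below, the difference was -0.85 (SE 0.12). CTR replicate 6 was highest and CTR replicate 4 lowest in their group. Replicate 1 stood above the other dKO libraries, which reached no higher than 176 FPKM.

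Trib3 (ENSMUSG00000032715, chr2:152179337-152191958, minus strand), a pseudokinase that ATF4 induces and that in turn restrains ATF4, differed most between the groups. It ran from 63.1 to 184 FPKM in CTR (median 112) and from 17.4 to 24.6 FPKM in dKO (median 19.0), and its log2 difference was -2.44 (SE 0.20). The dKO mean was 16.9% of the CTR mean, and the lowest CTR library lay well above the highest dKO library. The spread also differed, with a coefficient of variation of 35.9% in CTR and 13.4% in dKO.

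Chac1 (ENSMUSG00000027313, chr2:119180757-119184866, plus strand), an enzyme that breaks down glutathione, ran from 19.4 to 33.2 FPKM in CTR (median 30.1) and from 4.84 to 7.62 FPKM in dKO (median 6.04). Its log2 difference was -2.01 (SE 0.13) and its dKO mean was 22% of the CTR mean. Asns (ENSMUSG00000029752, chr6:7671667-7728461, minus strand), which makes asparagine from aspartate and glutamine, ran from 95.2 to 190 FPKM in CTR (median 150) and from 31.2 to 37.7 FPKM in dKO (median 34.6). Its log2 difference was -2.0 (SE 0.13) and its dKO mean was 24% of the CTR mean. Neither gene had a dKO library that reached the lowest CTR library.

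Sesn2 (ENSMUSG00000028893, chr4:132219335-132237815, minus strand), a leucine sensor that holds back the growth kinase complex mTORC1, ran from 26.1 to 41.7 FPKM in CTR (median 36.3) and from 15.4 to 19.9 FPKM in dKO (median 19.1), with a log2 difference of -0.88 (SE 0.11). Atf5 (ENSMUSG00000038539, chr7:44461680-44466082, minus strand), a bZIP factor related to ATF4 and translated under the same control, ran from 81.3 to 99.9 FPKM in CTR (median 88.4) and from 47.2 to 63.0 FPKM in dKO (median 54.2), with a log2 difference of -0.72 (SE 0.08). Nupr1 (ENSMUSG00000030717, chr7:126222414-126230033, minus strand), a small stress-induced chromatin protein, ran from 49.5 to 71.4 FPKM in CTR (median 56.0) and from 35.5 to 42.3 FPKM in dKO (median 38.4), with a log2 difference of -0.57 (SE 0.09). The groups did not overlap for any of these genes, whose dKO means were 52.7%, 60.5% and 66.1% of the CTR means.

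For the other 3 members the groups overlapped. Ddit3 (ENSMUSG00000025408, chr10:127124268-127132163, plus strand) encodes CHOP, a C/EBP-family factor linked to cell death under lasting stress. It ran from 47.0 to 172 FPKM in CTR (median 81.2) and from 33.6 to 90.4 FPKM in dKO (median 50.2), and its log2 difference was -0.71 (SE 0.32). It varied most of the 10 in CTR, with a coefficient of variation of 48.6%. Its exons in GENCODE vM39, 5579 bases in all, share 3576 bases with Mars1 on the other strand. The length behind its FPKM, recovered from the values, was only 1713 bases, so how much of that length is shared is not known. Whether the counting used strand is not given in the sources used here either, so its level is uncertain. Atf5, Eif2ak4 and Cebpb share 180, 504 and 312 bases of exon with genes on the other strand, and the remaining members share none.

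Eif2ak4 (ENSMUSG00000005102, chr2:118218950-118305868, plus strand), the GCN2 kinase that senses uncharged tRNA, was the least abundant member. It ran from 3.98 to 5.06 FPKM in CTR (median 4.49) and from 3.49 to 4.35 FPKM in dKO (median 3.96), and its log2 difference was -0.15 (SE 0.07). It rested on 458 to 624 recovered fragments per library, where counting error alone adds to the spread. Chac1 (142 to 924 fragments) and Cebpb (233 to 1414 fragments) rested on fewer in some libraries. Cebpb (ENSMUSG00000056501, chr2:167530835-167532338, plus strand), a C/EBP factor that can pair with ATF4, ran from 14.5 to 24.5 FPKM in CTR (median 17.7) and from 9.76 to 52.4 FPKM in dKO (median 13.6), with a log2 difference of -0.19 (SE 0.33). The value of 52.4 FPKM belongs to dKO replicate 4 alone, and the other dKO libraries reached no higher than 18.2 FPKM. Without that library the log2 difference of Cebpb was -0.52. The same library had the highest fibroblast marker sum of its group, 1650 FPKM against 820 to 1514 FPKM in the others. It also had the highest endothelial (550 FPKM) and lung epithelial (375 FPKM) sums and the lowest smooth muscle and pericyte sum (504 FPKM). Most of the last sum came from Acta2 (362 FPKM). Of that list, Myh11, Tagln, Cnn1, Des and Cspg4 were also lowest in this library, while Kcnj8 and Abcc9 were highest. Whether any of these sums bears on Cebpb was not tested.

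**Figure D1:**
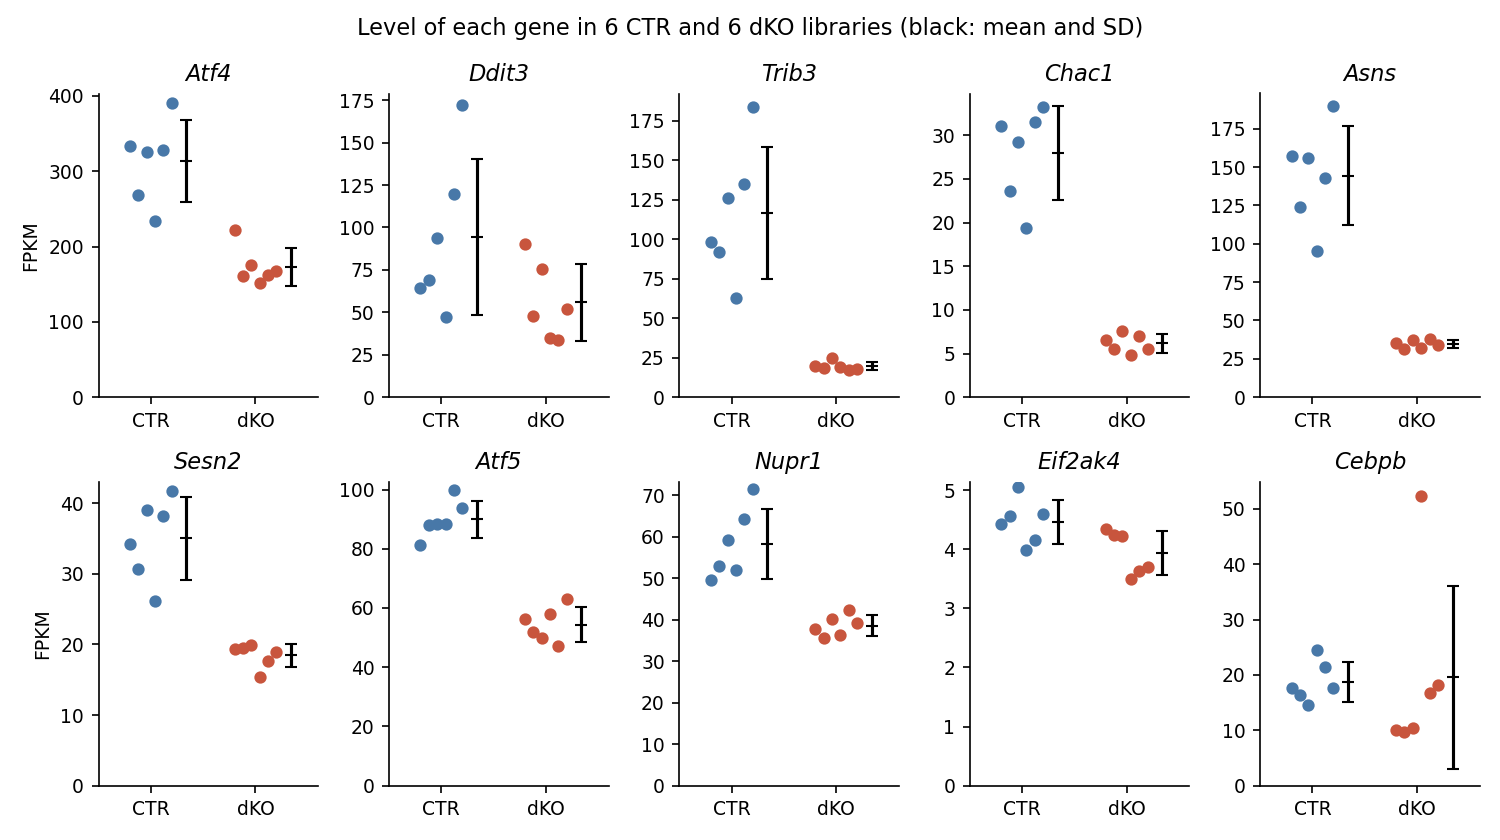
FPKM (vertical axes, each from 0) of the 10 genes in the 6 CTR (blue) and 6 dKO (red) libraries, drawn in order of replicate, with the mean and SD in black. The groups are apart for Atf4, Trib3, Chac1, Asns, Sesn2, Atf5 and Nupr1 and overlap for Ddit3, Eif2ak4 and Cebpb, where dKO replicate 4 stands at 52.4 FPKM.

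In the fit of all 12467 tested genes with limma, 7 of the 10 members had an adjusted p under 0.05 and were lower in dKO, against 32.6% of all tested genes, and 0 were higher, against 20.4%. With a log2 difference below -1.5 as well, Trib3, Chac1 and Asns were left, against 0.553% of tested genes. All 6 dKO libraries lay below all 6 CTR libraries for 7 members and for 16.1% of tested genes. Because the members were chosen with this comparison known, nothing is read from these counts. The median log2 difference was -0.78 over the 10 members and -0.10 over all tested genes. With median-of-ratios scaling the median of all genes was -0.02, and the share of called genes that were lower went from 61.5% to 48.4%.

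The order of the levels differed between the groups. In CTR, Atf4 was followed by Asns, Trib3, Ddit3, Atf5, Nupr1, Sesn2, Chac1, Cebpb and Eif2ak4, and the ranges of neighbours overlapped for Asns and Trib3, Trib3 and Ddit3, Ddit3 and Atf5, Sesn2 and Chac1, and Chac1 and Cebpb. Within each library, Asns was above Trib3 in 6 of 6 CTR libraries, while Ddit3 was above Atf5 in only 3 of 6. In dKO, Atf4 was followed by Ddit3, Atf5, Nupr1, Asns, Trib3, Cebpb, Sesn2, Chac1 and Eif2ak4, so that Asns, next to Atf4 in CTR, came after Nupr1, with Nupr1 above it in 6 of 6 dKO libraries. This order is that of the means, and Ddit3 was above Atf5 in only 2 of 6 dKO libraries and Cebpb above Sesn2 in only 1 of 6, replicate 4. Ddit3 and Atf5, Trib3 and Cebpb, and Cebpb and Sesn2 did not differ beyond their spread there.

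Set against Atf4 in the same library, the members fell into those that were lower relative to Atf4 in dKO and those that were not. Trib3 stood at 27.0% to 47.0% of the Atf4 level in CTR and at 9.0% to 14% in dKO. Asns stood at 40.7% to 48.5% and at 16% to 23.3%, and Chac1 at 8.28% to 9.61% and at 2.96% to 4.34%. For these 3 genes all 6 dKO libraries lay below all CTR libraries, with a ratio that was 3.14, 2.27 and 2.51 times higher in CTR by geometric mean.

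The ratio of Sesn2 to Atf4 overlapped between the groups, at 10.3% to 12% in CTR and 8.71% to 12.1% in dKO. So did that of Ddit3, at 19.3% to 44.0% and 20.8% to 43.1%, and that of Atf5, at 23.9% to 37.7% and 25.4% to 38.4%. Nupr1 stood at 14.8% to 22.3% in CTR and at 17% to 26.2% in dKO, with 4 dKO libraries above all CTR libraries. Cebpb stood at 4.46% to 10.5% in CTR and at 4.50% to 34.8% in dKO, with 2 dKO libraries above all CTR libraries. Eif2ak4 was higher relative to Atf4 in all 6 dKO libraries, at 1.17% to 1.70% in CTR and 1.96% to 2.63% in dKO. These ratios use the same values as the comparison by which the genes were chosen and carry no test.

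**Figure D2:**
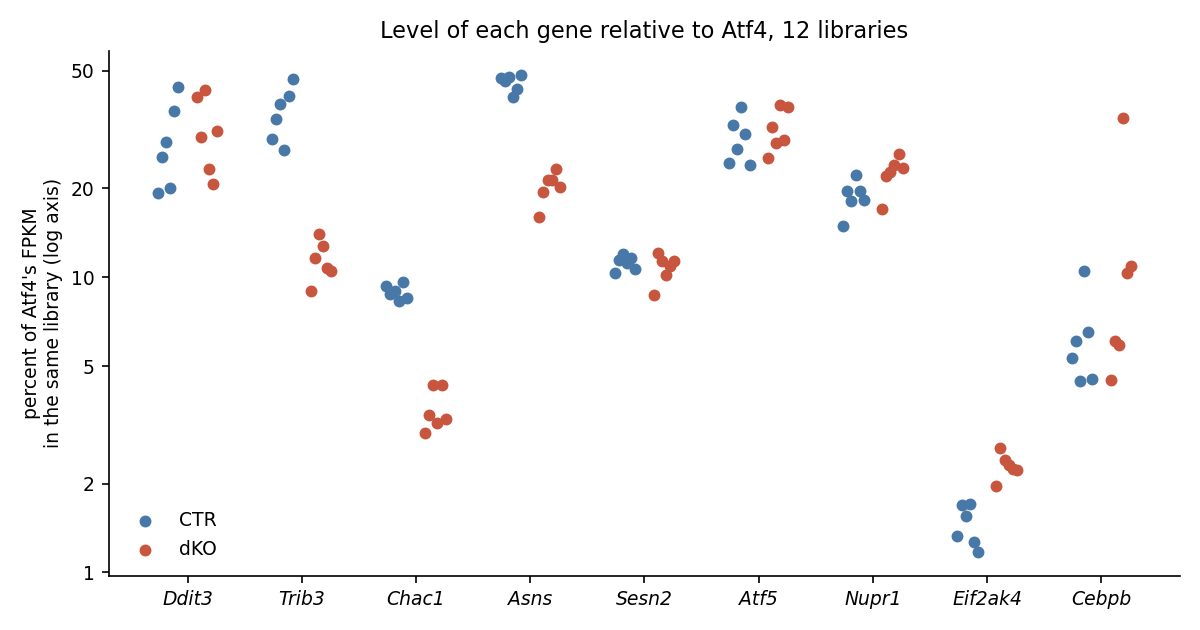
Level of each gene as a percent of the Atf4 FPKM of the same library (vertical log axis), with 6 CTR libraries in blue and 6 dKO libraries in red. Trib3, Chac1 and Asns are lower relative to Atf4 in dKO with no overlap, Eif2ak4 is higher with no overlap, and Sesn2, Ddit3, Atf5, Nupr1 and Cebpb overlap.

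Within a group, the libraries differ in Atf4 although they share a genotype, and this spread was not used to choose the genes. In CTR, the log2 level of Atf4 was followed closely by Asns (Pearson r = 0.98, Spearman rho = 0.94), Chac1 (r = 0.97, rho = 0.94), Sesn2 (r = 0.95, rho = 0.77) and Trib3 (r = 0.93, rho = 0.83), each over n = 6 libraries. The exact permutation p of r was 0.00833 for Asns, 0.00556 for Chac1, 0.0167 for Sesn2 and 0.0139 for Trib3, and each was 0.0600 after Benjamini-Hochberg adjustment over the 18 relations computed (9 genes in 2 groups, two-sided exact permutation tests). For rho the exact permutation p was 0.0167 for Asns and Chac1, 0.103 for Sesn2 and 0.0583 for Trib3, with adjusted values of 0.150, 0.150, 0.370 and 0.263. None of the 18 relations therefore passed an adjusted p under 0.05 by r or by rho, while 6 had an unadjusted p of r under 0.05. The smallest p of the exact permutation test over 6 libraries is 0.00278, so a single relation could not pass this adjustment alone. After rescaling to TPM 5 relations passed, those of Asns, Chac1, Sesn2 and Trib3 in CTR and, with a negative r, that of Cebpb in dKO (exact permutation tests, adjusted p from 0.0375 to 0.0400).

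CTR replicate 6 had the most Atf4, Trib3, Chac1, Asns, Sesn2, Ddit3 and Nupr1, and CTR replicate 4 the least Atf4, Trib3, Chac1, Asns, Sesn2 and Ddit3. Without the 2 libraries farthest from the median of Atf4 (replicates 2 and 4), r in CTR was 0.94 for Asns, 0.81 for Chac1, 0.80 for Trib3 and 0.64 for Sesn2 over 4 libraries, too few for a test to pass. A strong relation with Atf4 was not rare in CTR, where 9.27% of the 12466 other tested genes had r of at least 0.9. In the order of these genes Asns was at place 94, Chac1 at 284, Sesn2 at 548 and Trib3 at 771. The summed smooth muscle and pericyte markers were also highest in CTR replicate 6 (1512 FPKM) and lowest in CTR replicate 4 (566 FPKM). Most of that sum came from Acta2, at 1328 and 409 FPKM in these libraries. Of the same list, Cnn1 and Cspg4 were also highest in replicate 6 and lowest in replicate 4. Kcnj8 (9.78 and 13.1 FPKM) and Abcc9 (0.933 and 2.54 FPKM) were the reverse. Other sums went the opposite way, since the endothelial (344 FPKM), macrophage (1367 FPKM) and lung epithelial (531 FPKM) sums were highest in CTR replicate 4, and the macrophage sum was lowest in CTR replicate 6 (821 FPKM). Over the CTR libraries the log2 sums had r with log2 Atf4 of 0.94 (smooth muscle and pericyte), 0.70 (mesothelial) and -0.62 (macrophage). The r was -0.72 for the fibroblast, -0.82 for the lung epithelial and -0.89 for the endothelial sum. The part of these cell types in the relations was not tested.

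In dKO the same genes had lower r with Atf4 by value, at 0.38 for Asns, 0.47 for Chac1, 0.55 for Sesn2 and 0.29 for Trib3 (exact permutation p of 0.528, 0.358, 0.117 and 0.406, adjusted 0.633, 0.496, 0.233 and 0.521). With 1 library left out, r in dKO ranged from 0.22 to 0.61 for Asns, 0.25 to 0.77 for Chac1, 0.32 to 0.87 for Sesn2 and 0.22 to 0.53 for Trib3. Without replicate 1, the library with the most Atf4, it was 0.58, 0.77, 0.87 and 0.53, and without replicate 4 it was 0.22, 0.25, 0.32 and 0.31. The difference of r between the groups was not tested. In dKO the log2 marker sums had r with log2 Atf4 of -0.95 (fibroblast), 0.74 (smooth muscle and pericyte) and 0.42 (mesothelial). The r was -0.36 for the endothelial, -0.26 for the lung epithelial and 0.18 for the macrophage sum. The part of these cell types in the dKO relations was not tested. The SD of Atf4 itself on the log2 scale was 0.19 in dKO and 0.26 in CTR. Without replicates 1 and 4, the libraries farthest from the median of Atf4, r in dKO was 0.46 for Asns, 0.56 for Chac1, 0.58 for Sesn2 and 0.86 for Trib3 over 4 libraries. Asns kept within 31.2 to 37.7 FPKM in dKO, where Atf4 ran from 151 to 176 FPKM in all libraries but replicate 1 (222 FPKM).

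Ddit3 had r = 0.86 with Atf4 in both groups (exact permutation p = 0.0306 in CTR and 0.0167 in dKO, adjusted 0.0917 and 0.0600), and rho of 0.66 and 0.83 (exact permutation p = 0.175 and 0.0583, adjusted 0.394 and 0.263). Without the 2 farthest libraries its r was 0.73 in CTR and 0.89 in dKO. It was also the gene that rose most for a given rise of Atf4, by 2.2 log2 units per log2 unit of Atf4 in CTR and 2.52 in dKO. In the order of r among the other tested genes it stood at place 1569 in CTR and 1323 in dKO.

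Of the remaining members, Nupr1 had r = 0.68 in CTR and 0.05 in dKO, Eif2ak4 0.49 and 0.69, Atf5 0.25 and 0.09, and Cebpb -0.47 and -0.60. Without CTR replicate 4, r in CTR was 0.00 for Eif2ak4 and 0.20 for Cebpb, so both values rest on that library. Their exact permutation p of r ranged from 0.05 for Eif2ak4 in dKO (adjusted 0.129) to 0.906 for Nupr1 in dKO (adjusted 0.906). Their rho ranged from -0.37 for Cebpb in dKO (exact permutation p = 0.497, adjusted 0.597) to 0.66 for Eif2ak4 in dKO (exact permutation p = 0.175, adjusted 0.394). Atf5, whose groups did not overlap, rose within a group by 0.09 log2 units per log2 unit of Atf4 in CTR and by 0.07 in dKO.

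The slope within CTR can be set beside the difference between the groups. In CTR the log2 level of Asns rose by 1.28 per log2 unit of Atf4, that of Trib3 by 1.88 and that of Chac1 by 1.07, while their differences between dKO and CTR were 2.36, 2.89 and 2.37 times that of Atf4. For Sesn2 the slope was 0.89 and the difference 1.04 times that of Atf4. For Ddit3 the slope was 2.2 and the difference 0.84 times that of Atf4, and for Atf5 they were 0.09 and 0.85. For Nupr1 they were 0.52 and 0.68, for Eif2ak4 0.19 and 0.17, and for Cebpb -0.47 and 0.22. By value the difference was the larger for Trib3, Chac1, Asns, Sesn2, Atf5 and Nupr1 and the smaller for Ddit3 and Eif2ak4. For Cebpb the signs were opposite. The slopes are given without an error, so close values such as those of Sesn2, Nupr1 and Eif2ak4 are not told apart. These are descriptions over 6 libraries a group with no test.

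**Figure D3:**
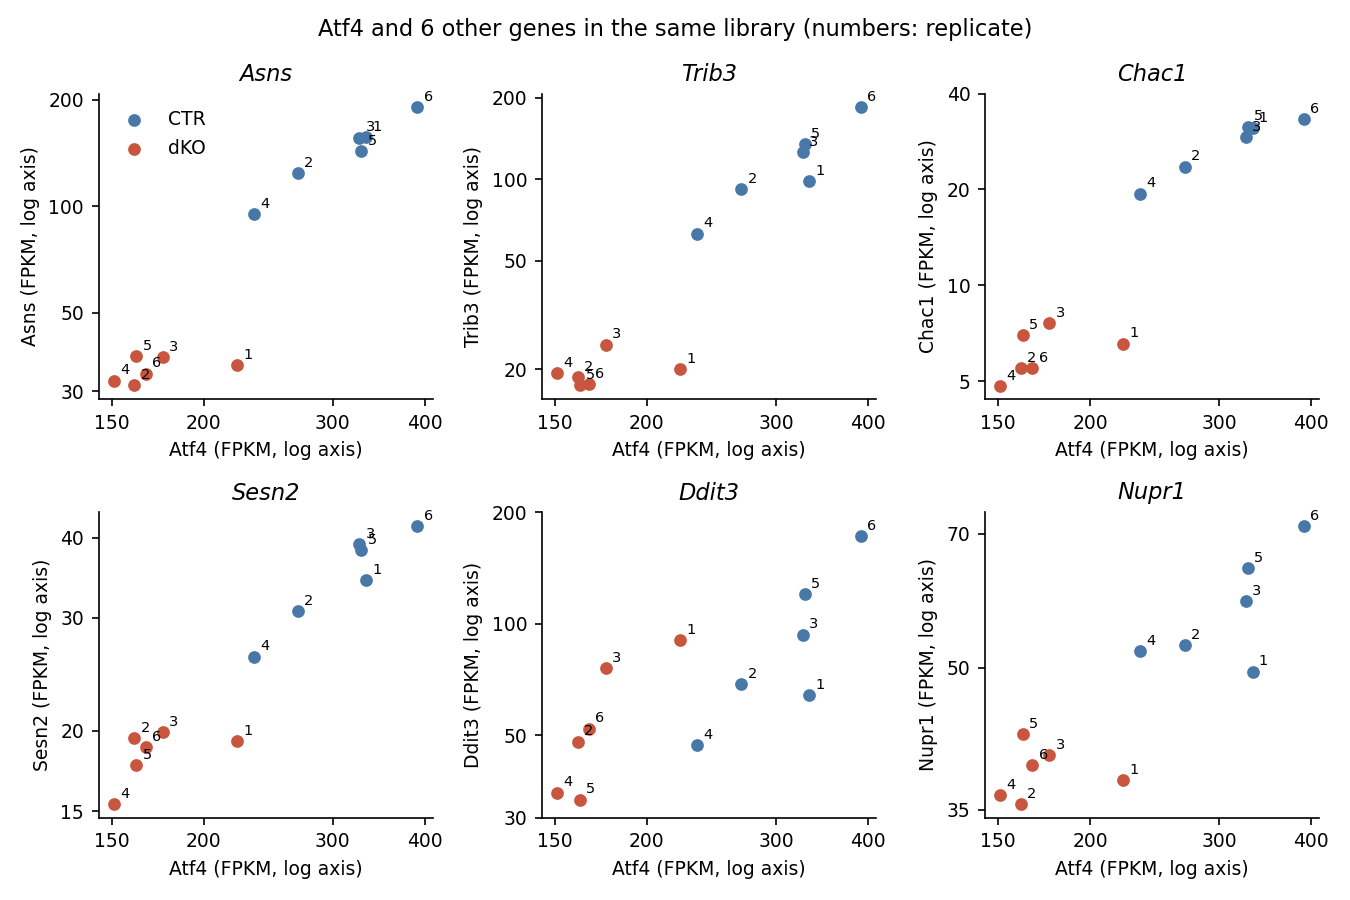
FPKM of 6 genes against that of Atf4 in the same library (both axes log), with CTR in blue, dKO in red and the replicate number beside each point. In CTR the points of Asns, Chac1, Sesn2 and Trib3 rise with Atf4 (r of 0.98, 0.97, 0.95 and 0.93), in dKO they lie low, and Ddit3 rises in both groups (r = 0.86).

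The 5 genes whose levels, with each group's mean taken away, were most like those of Atf4 over the 12 libraries were Rrp9, Chchd4, Rrp12, Usp15 and Ddx18, each with r = 0.98. Among the members the highest values of this measure were 0.86 for Ddit3, 0.83 for Sesn2, 0.82 for Asns, 0.79 for Chac1 and 0.77 for Trib3, and 9.49% of tested genes had at least 0.8. Of the 5 genes, Rrp9 had a log2 difference of -0.83 (SE 0.24, adjusted p = 0.0123) and Ddx18 of -0.61 (SE 0.14, adjusted p = 0.00284) in limma. Rrp12 had a log2 difference of -0.61 (SE 0.24) and passed only narrowly (limma adjusted p = 0.0456). It did not pass with median-of-ratios or quantile scaling, without the filter, or without any one of CTR replicates 1, 3, 5 and 6 and dKO replicates 2 to 6, where its log2 difference ranged from -0.60 to -0.47, or with CTR replicate 6 and dKO replicate 4 both left out (-0.38). Chchd4 (-0.23, adjusted p = 0.237) and Usp15 (0.02, adjusted p = 0.842) did not pass in limma, and the sign for Usp15 turned to -0.02 after rescaling to TPM.

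Genes around the members were taken from 9 lists, which were also written with earlier results of these data known and so are no independent evidence of a direction. In all, 117 of their 121 genes were tested, and with limma 57 fell and 23 rose in dKO at an adjusted p under 0.05, beside 32.6% and 20.4% of all tested genes. With CTR replicate 6 and dKO replicate 4 both left out, a choice made after seeing the data, the counts were 54 and 25.

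Genes that ATF4 is known to induce for amino-acid supply fell with few exceptions. All 12 tested genes of amino-acid synthesis fell, with a median log2 difference of -1.62 against -0.10 for all tested genes. The largest fall was that of Cth, which makes cysteine from cystathionine, from 27.7 to 86.4 FPKM in CTR (median 54.7) to between 5.07 and 7.24 FPKM in dKO (median 5.51), a log2 difference of -2.90 (SE 0.21, adjusted p = 8.17e-07). All 6 dKO libraries lay below all CTR libraries. The summed level of this list was highest in CTR replicate 6 (755 FPKM) and lowest in CTR replicate 4 (394 FPKM), the libraries at the ends of Atf4 in that group. The same libraries were at the ends for lists with genes that rose, since the sums of the p53 targets (610 and 413 FPKM), of eIF2 control (337 and 209 FPKM) and of the bZIP relatives (643 and 493 FPKM) were highest and lowest there too.

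Of the 10 amino-acid transporter genes, 9 fell and Slc38a2 did not pass (log2 difference -0.20, adjusted p = 0.0539), with a median of -1.26. Slc7a5, the light chain of the leucine carrier LAT1, went from between 68.9 and 117 FPKM in CTR (median 102) to between 15.4 and 19.1 FPKM in dKO (median 16.5), a log2 difference of -2.44 (SE 0.11, adjusted p = 3.01e-08). All 13 genes for cytosolic tRNA synthetases and the tRNA export factor fell, with a median of -0.95, and Eprs1, which charges glutamate and proline tRNA, fell most (-1.31, SE 0.10, adjusted p = 8.17e-07). It ran from 27.1 to 42.4 FPKM in CTR and from 13.2 to 15.3 FPKM in dKO. The transporter and tRNA synthetase sums were also highest in CTR replicate 6 and lowest in CTR replicate 4. In dKO the transporter sum was highest in replicate 4 (214 FPKM), the library with the least Atf4, and the tRNA synthetase sum in replicate 1 (556 FPKM), the library with the most. In the 300-base windows at GENCODE starts, the CARE core was found in 4 of 12 synthesis genes, 1 of 10 transporter genes and 5 of 13 tRNA synthetase genes, and in 2.35% of tested genes.

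Other effectors of the response were mixed. Of 15 tested stress effector genes, 8 fell, 1 rose and 6 did not pass (median -0.46), and without CTR replicate 4, CTR replicate 5 or dKO replicate 1 there were 2 that rose, Gdf15 and Map1lc3b. Gadd45a, which acts in growth arrest and DNA repair, went from between 20.9 and 68.5 FPKM in CTR (median 36.6) to between 10.7 and 16 FPKM in dKO (median 12.4), a log2 difference of -1.42 (SE 0.22, adjusted p = 1.86e-04). Gdf15, a secreted stress hormone, rose from a CTR median of 20.2 FPKM to a dKO median of 26.6 FPKM (log2 difference 0.46, SE 0.15, adjusted p = 0.0214), with 4 of 6 dKO libraries above all CTR libraries.

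Upstream, among 13 genes for eIF2 kinases and eIF2 control, 5 fell, 3 rose and 5 did not pass (median -0.02). Ppp1r15a, the stress-induced GADD34 subunit that directs a phosphatase to eIF2 and is itself a target of the pathway, fell from between 23.5 and 100 FPKM in CTR (median 41.9) to between 14.1 and 29.9 FPKM in dKO (median 16.6), a log2 difference of -1.22 (SE 0.29, adjusted p = 0.00362), with 5 of 6 dKO libraries below all CTR libraries. Eif2ak2, the kinase PKR that senses double-stranded RNA, rose from between 6.68 and 8.51 FPKM in CTR to between 9.92 and 20.2 FPKM in dKO (log2 difference 0.82, SE 0.15, adjusted p = 6.02e-04). The lists hold mRNA levels and no measure of eIF2 phosphorylation.

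Among 16 tested bZIP relatives and partners, 6 fell, 1 rose and 9 did not pass (median -0.13), and without CTR replicate 4 there were 3 that rose, Fos, Cebpa and Jun, while without dKO replicate 2 or 5 there were 2, Fos and Cebpa. Nfe2l2, which encodes the antioxidant factor NRF2, fell from between 64.6 and 110 FPKM in CTR to between 43.0 and 50.8 FPKM in dKO (log2 difference -0.70, SE 0.12, adjusted p = 3.37e-04). Fos, an immediate-early factor, rose from a CTR median of 11.7 FPKM to a dKO median of 22.1 FPKM (log2 difference 0.69, SE 0.17, adjusted p = 0.00446). Of the 14 genes of sestrin and amino-acid sensing, 5 fell and 3 rose (median -0.03), among them Nprl3, a part of the GATOR1 complex that inhibits mTORC1 (-0.56, SE 0.08, adjusted p = 9.04e-05), and Rragd, a Rag GTPase (0.99, SE 0.12, adjusted p = 3.00e-05). Nprl3 ran from 3.43 to 4.98 FPKM in CTR and from 2.38 to 2.90 FPKM in dKO, and Rragd from 1.90 to 3.58 and from 5.22 to 7.43 FPKM.

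Some genes of neighbouring stress pathways rose, given here beside the 20.4% of all tested genes that were higher and the 32.6% that were lower. Of 15 ER chaperone genes, which ATF6 and XBP1 induce, 8 rose, 0 fell and 7 did not pass (median 0.52), and without dKO replicate 3 there was 1 that fell, Dnajc3. Sdf2l1, an ER chaperone cofactor, rose from between 11.1 and 20.4 FPKM in CTR to between 29.5 and 98.9 FPKM in dKO (log2 difference 1.56, SE 0.26, adjusted p = 3.04e-04). Of 12 p53 target genes, 7 rose, 0 fell and 5 did not pass (median 0.61), led by Cdkn1a, the cell-cycle inhibitor p21, from between 92.7 and 172 FPKM in CTR to between 195 and 357 FPKM in dKO (log2 difference 0.98, SE 0.16, adjusted p = 2.46e-04). The summed macrophage markers were also higher in dKO. In CTR their sum was highest in replicate 4, where the ER chaperone (790 FPKM) and p53 (413 FPKM) sums were lowest. In dKO the macrophage and ER chaperone sums were both highest in replicate 3, the latter at 2479 FPKM. The p53 sum was highest in dKO replicate 1 (1101 FPKM). The part of macrophages in these lists was not tested.

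**Figure D4:**
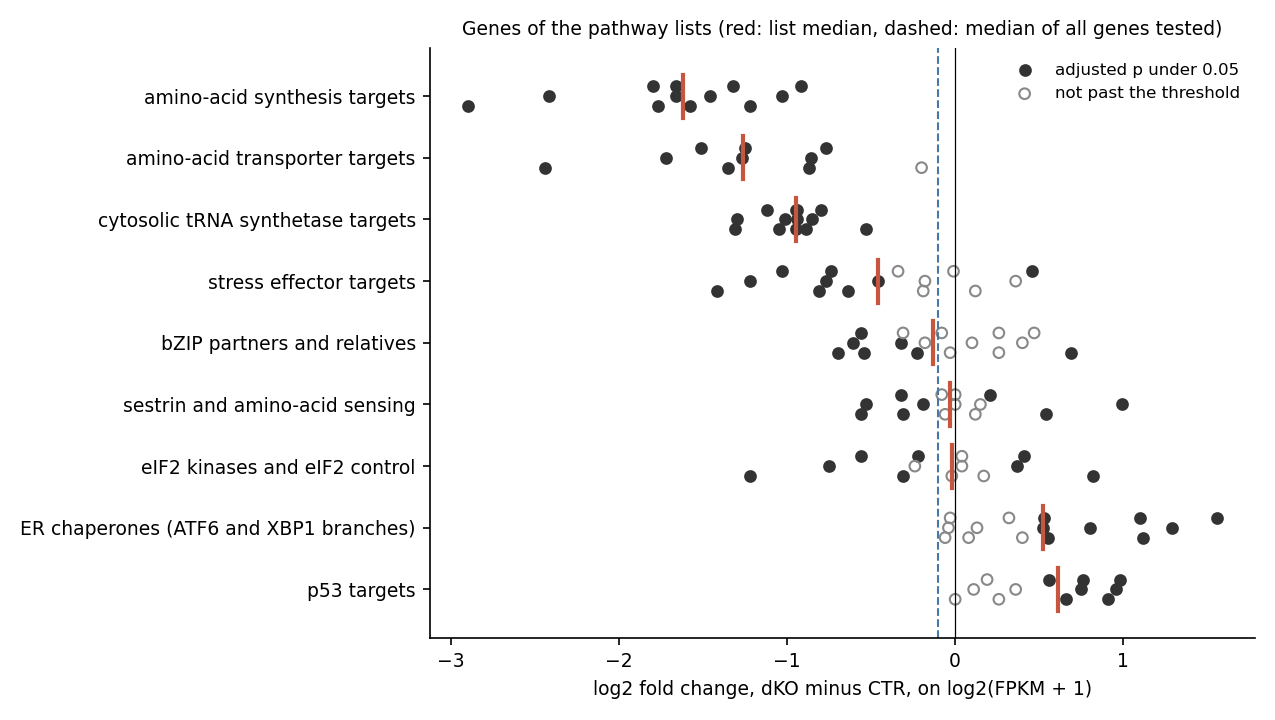
Log2 difference between dKO and CTR (horizontal axis) of each tested gene in 9 lists, filled where the limma adjusted p was under 0.05, with the list median in red and the median of all tested genes (-0.10) dashed. The synthesis, transporter and tRNA synthetase genes lie to the left (medians -1.62, -1.26 and -0.95) and the ER chaperone and p53 genes to the right (0.52 and 0.61).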

How the data were processed

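The study compared MLECs of CTR and dKO mice. The authors report trimming, alignment to mm39 with STAR and a second alignment of uniquely aligned reads, while the submitters' processing notes name Bowtie2 2.2.3, HISAT2 2.1.0, TopHat2 and DESeq2. They deposited FPKM values. The counting program, its annotation and its strand setting are not given in the sources used here. Whole fragments were recovered from the FPKM values (100% of values above 0 whole within 0.0001) and served for depth, 15523054 to 17938286 fragments per library, and for limma-voom. Identifiers were matched to GENCODE vM39 for 27706 genes (96.6%).

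Since FPKM are not counts, log2(FPKM + 1) was fitted with limma 3.58.1 in R 4.3.3 (lmFit, eBayes with trend, no covariate) and adjusted by Benjamini-Hochberg over all 12467 tested genes. Relations within a group used all 720 pairings of 6 libraries. No member had a near-identical copy by BLAST 2.17.0 (95% identity over at least 150 bases and 50% of the copy). Fits were tested on simulated data. The members and lists were chosen with earlier results of these data known. Named are the members, Sp1, Sp3, the largest riser and faller past an adjusted p of 0.05 in each list, and the 5 genes most like Atf4 with group means removed. Marco, Lyz2, Col1a1, Col1a2, Col3a1, Dcn, Slc38a2, Mars1, Dnajc3, Cebpa, Jun and Map1lc3b were named after their values were seen. So were Acta2, Myh11, Tagln, Cnn1, Des, Cspg4, Kcnj8 and Abcc9. Lymphocyte markers summed to at most 1.99 FPKM. Of the lung epithelial, mesothelial, fibroblast and smooth muscle and pericyte markers tested, 1 of 7, 5 of 6, 1 of 6 and 2 of 8 rose, and 0, 0, 3 and 1 fell.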

Additional observations from a re-analysis of the deposited data

Results flagged for a closer look

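In 60 sets of 6 libraries (the members, Sp1, Sp3 and the other named genes in each group), 8 had a library whose gap to the nearest other, divided by the range of the group, was above Dixon's critical value for 6 values, where chance (about 1 in 20) gives about 3. Among the members, dKO replicate 1 had 222 FPKM of Atf4 against 151 to 176 FPKM in the other dKO libraries, dKO replicate 3 had 24.6 FPKM of Trib3 against 17.4 to 20 FPKM, and dKO replicate 4 had 52.4 FPKM of Cebpb against 9.76 to 18.2 FPKM. Replicate 1 was also the dKO library with 29.9 FPKM of Ppp1r15a against 14.1 to 19.5 FPKM, 13.1 FPKM of Rrp9 against 4.50 to 7.49 FPKM and 10.3 FPKM of Rrp12 against 3.38 to 4.93 FPKM. Rrp9 and Rrp12 had been picked for their likeness to Atf4, so they are not separate signs. dKO replicate 3 had 98.9 FPKM of Sdf2l1 against 29.5 to 49.5 FPKM, and CTR replicate 2 had 20.8 FPKM of Fos against 10.4 to 13.8 FPKM. Without dKO replicate 1 the log2 difference of Ddit3 was -0.86, against -0.71 with all libraries.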

How the results depend on the processing

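Replicate numbers recur in both groups but are not stated to mark shared mice or days, and the deviations of same-numbered libraries correlated from -0.11 to 0.57 over genes, with 2 of 6 dKO libraries closest to the CTR library of their own number, so they were not taken as pairs. With the replicate number as a block, 7 members and 60 pathway genes were lower and 0 and 27 higher. Leaving out each library in turn gave 7 to 8 members and 53 to 59 pathway genes lower.

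Across pseudocounts, filters, TPM, median-of-ratios and quantile scaling, array weights and limma-voom, 7 to 9 members and 51 to 60 pathway genes were lower. The 7 members kept their sign throughout, while Ddit3 and Eif2ak4 passed with array weights, Ddit3 also without CTR replicate 4 or dKO replicate 1, and Cebpb without dKO replicate 4. The relations with Atf4 past the threshold went from 0 to 5 after rescaling to TPM. They stayed at 0 on linear FPKM, with a pseudocount of 0.1, with median-of-ratios scaling and for rho. The count was also 0 with a library left out, where fewer pairings in that group make a pass harder, so nothing is read from it. The Sp3 difference was -0.05 with median-of-ratios scaling (exact permutation p = 0.374) and -0.18 to -0.11 with a library left out, where the exact permutation p exceeded 0.05 in 9 of 12 cases. The CARE core was found in 2 members at GENCODE starts. Signs turned for Usp15 (-0.02 with TPM, -0.03 with array weights, -0.03 to 0.06 with a library left out) and for r of Atf4 in dKO with Atf5 (-0.09 with TPM and for rho, -0.12 with median of ratios, -0.22 to 0.29 with a library left out) and Nupr1 (-0.02 with TPM, -0.16 with median of ratios, -0.19 to 0.49), and for r with Cebpb in CTR (-0.66 to 0.20). The cause was not tested. Without the 2 libraries farthest from Atf4's median, an exact test over 4 libraries cannot pass, so it has no count. Levels rest on 142 or more fragments per member and library.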
